A study of Rattus norvegicus with 12 samples.

Results

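Optineurin (Optn), the kinase that phosphorylates it (Tbk1) and the autophagy genes they act with were followed in the rat retina 12 h after traumatic optic neuropathy (TON). The set held 10 genes, chosen by name: Optn, Tbk1, Sqstm1, Gabarap, Gabarapl2, Map1lc3b, Becn1, Atg5, Atg7 and Ulk1. Of them, 9 had a row in the expression table of 22714 genes, and Map1lc3b had none under that name. In the m6A data, 5 of the 10 genes carried a peak, in 16 of 24605 merged regions. All animals were male Sprague-Dawley (SD) rats of 7 to 8 weeks. In TON rats the optic nerve was clamped 2 mm behind the eye for 10 s with a force of 40 g, and sham rats had the same operation without the clamp. Each group had 3 samples (sham 1 to 3, TON 4 to 6), each a pool of the retinas of 4 rats, and each pool was sequenced both as m6A-immunoprecipitated RNA and as input. The retina was taken whole, so fewer cells of a type and less RNA per cell cannot be told apart.

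In autophagy a double membrane closes around part of the cytoplasm and delivers it to the lysosome. The ULK1 kinase starts the process, Beclin 1 (Becn1) belongs to the lipid kinase complex that marks the growing membrane, and ATG7 and ATG5 are needed to attach ATG8-family proteins to it. The ATG8 family includes LC3B (Map1lc3b), GABARAP and GABARAPL2. OPTN and p62 (Sqstm1) are cargo receptors, which bind ubiquitin on the cargo with one site and ATG8 proteins with another. TBK1 phosphorylates OPTN and so raises its binding to LC3. Human OPTN, by mutation, and TBK1, by copy-number gain, are linked to glaucoma with normal eye pressure, a disease of the retinal ganglion cells whose axons form the optic nerve. m6A is a methyl mark on adenosines of mRNA, and MeRIP-seq finds it as stretches enriched by an anti-m6A antibody over input RNA, called peaks.

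The start windows of the 3 genes with the most to compare below are given here. They are RefSeq sequences of assembly GRCr8, 250 bases before and 50 bases after the annotated start, and 9 of the 10 genes had such a window. Optn and Sqstm1 are the receptors whose mean input levels differed in opposite directions between the groups. Their capitals mark matches to the consensus of NF-kB, a transcription factor family activated through the IKK kinases, relatives of TBK1. In Gabarapl2 the capitals mark the 50 transcribed bases, since the 1 member region found in all sham and no TON lists began at the first base of this gene in the deposited coordinates. The Optn window lies at chr17:78118619-78118918 on the plus strand, that of Sqstm1 at chr10:35037701-35038000 on the minus strand and that of Gabarapl2 at chr19:56819576-56819875 on the plus strand.
Optn: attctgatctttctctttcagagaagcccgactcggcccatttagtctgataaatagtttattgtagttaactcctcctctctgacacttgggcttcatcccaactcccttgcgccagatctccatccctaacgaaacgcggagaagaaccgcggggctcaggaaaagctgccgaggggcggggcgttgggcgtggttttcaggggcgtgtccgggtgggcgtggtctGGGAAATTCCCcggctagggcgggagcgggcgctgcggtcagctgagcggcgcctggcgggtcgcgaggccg
Sqstm1: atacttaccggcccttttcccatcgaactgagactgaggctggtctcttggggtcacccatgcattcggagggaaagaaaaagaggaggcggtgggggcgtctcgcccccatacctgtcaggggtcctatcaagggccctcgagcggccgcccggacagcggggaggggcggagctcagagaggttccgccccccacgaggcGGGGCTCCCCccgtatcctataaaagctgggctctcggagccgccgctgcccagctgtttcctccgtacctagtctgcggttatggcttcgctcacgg
Gabarapl2: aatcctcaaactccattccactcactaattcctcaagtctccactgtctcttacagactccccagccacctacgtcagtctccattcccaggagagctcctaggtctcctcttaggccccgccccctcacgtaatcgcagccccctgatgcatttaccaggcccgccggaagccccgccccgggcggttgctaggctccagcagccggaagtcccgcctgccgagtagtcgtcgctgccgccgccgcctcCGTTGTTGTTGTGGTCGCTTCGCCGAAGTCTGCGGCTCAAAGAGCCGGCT

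The NF-kB consensus was searched for on both strands after the Optn window had been read. It lay in 2 of the 9 windows, and 4.18% of the 33469 rat windows of this length hold it. As the Optn window was read first, the count cannot be weighed against that share. In Optn the capitals cover 11 bases beginning 22 bases before the start, a near-palindrome that matched on both strands. In Sqstm1 they cover 10 bases beginning 48 bases before the start. The E-box CACGTG, the core of the element bound by the lysosomal regulator TFEB, lay in the windows of Tbk1 and Atg5 (2 of 9, 6.42% of all windows). The antioxidant response core TGACNNNGC, searched on both strands, lay in those of Gabarap and Map1lc3b (2 of 9, 12.1% of all). GGAC, the core of the m6A consensus, was searched on the sense strand of the 50 transcribed bases. It was there in Tbk1, Atg5 and Atg7 (3 of 9, 18.5% of all) and was not among the letters of this stretch in Gabarapl2. The Gabarapl2 region found in the sham lists is 102 bases long, so it was not searched in full. These are matches of letters only, and whether the start in GRCr8 is that of the deposited coordinates was not tested.

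Expression was read from the input libraries as FPKM, fragments scaled to transcript length and library size, which lets genes be compared per length. The authors' scaled fragments pointed to 3165552 to 4762216 unscaled fragments per input library. These depths are estimates, since whole counts were not accepted as recovered. Rod markers summed to 21506 to 22275 FPKM in sham and 22646 to 23069 FPKM in TON (6 of 6 genes found), those of Müller glia to 1486 to 1593 and 1530 to 1711 (4 of 4) and those of ganglion cells to 426 to 518 and 448 to 533 (6 of 6), so the libraries carried retinal markers. Sham 1 stood apart in genes of the ocular surface epithelium. Its 6 genes summed to 186.1 FPKM there, against 14.2 to 27.5 in the other sham and 2.80 to 18.7 in the TON libraries. Sham 1 also had the highest sum of the 4 lens genes, 3208 FPKM against 1097 to 1882 elsewhere. Sham 3 had the highest sum of the 4 pigment epithelium genes, 640.3 FPKM against 372.0 to 490.6 elsewhere. In TON 5 the 3 skeletal muscle genes summed to 36.8 FPKM, against 2.16 to 10.7 in the others. No defining marker of these lists was at 0 in every library. Between groups, 6 genes rose (0.0377% of the 15900 tested) and 1 fell (0.00629%) at an adjusted p under 0.05 in limma, 0.044% in all. Scaled fragments in place of FPKM gave 32 and 12.

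None of the 9 genes with a row passed that threshold (0 of 9 in limma, and 0 of 9 on scaled fragments). At an unadjusted p under 0.05 there were 3 of 9, Optn, Sqstm1 and Gabarapl2, against 10.4% of all genes tested. The groups did not overlap in 4 of 9. These were 2 higher in TON, Gabarapl2 and Atg5 (10.8% of all genes), and 2 lower, Optn and Becn1 (5.33%), against 16.2% of all genes in either direction. With so few genes these counts are a description, and nothing particular to the set is read from them. The median log2 change of the 9 was 0.22, beside 0.06 over all genes tested.

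**Figure D1:**
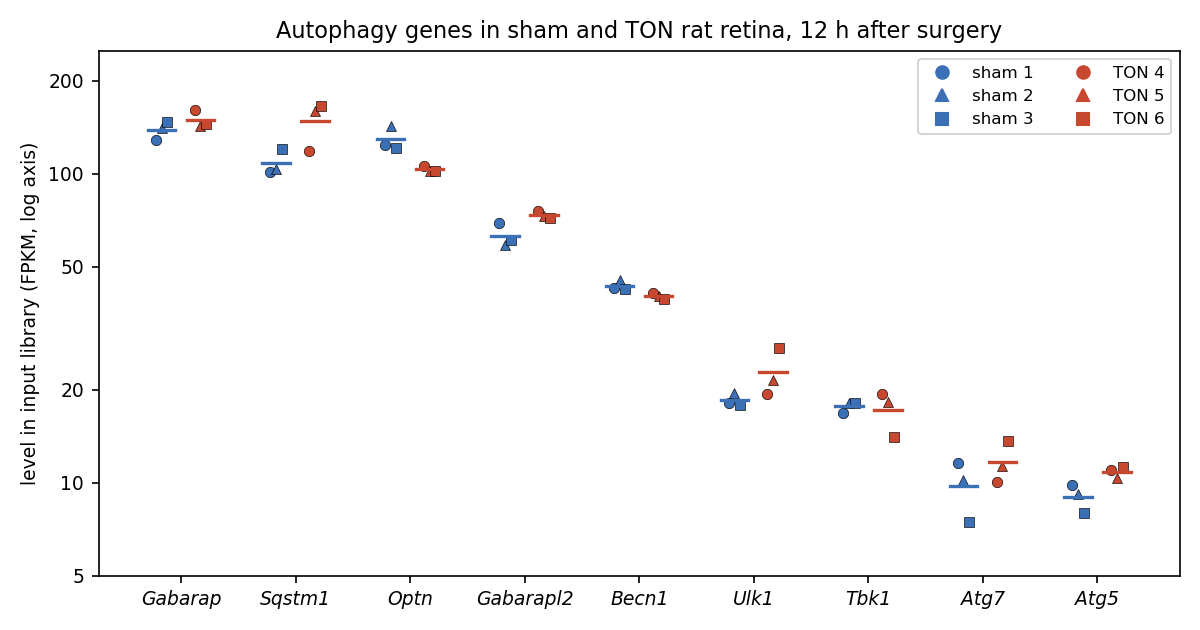
Level of each gene with an expression row in the 6 input libraries (FPKM, log axis), with 1 point per library and a line at each group mean. The 3 TON points of Optn lie below all sham points, those of Gabarapl2 lie above them, and those of Sqstm1 run from inside the sham range to well above it.

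Optn, the receptor that links ubiquitin-tagged mitochondria and protein aggregates to ATG8 proteins, was lower in TON. Its levels were 123.7, 142.2 and 121.2 FPKM in sham 1 to 3 and 105.8, 102.4 and 102.0 FPKM in TON 4 to 6. Every TON library was below every sham library, and the TON values were closer together than the sham values. The means were 129.0 ± 11.5 FPKM (SD, n = 3) and 103.4 ± 2.10 FPKM (SD, n = 3), a difference of -19.9%. On the log2(FPKM + 1) scale the change was -0.31 ± 0.09 (SE), with a 95% interval of -30.4% to -6.95%. Its unadjusted p in limma was 0.00889 and its adjusted p 0.377, so the difference did not pass the test across all genes. Without sham 1, the library with the ocular surface and lens genes, the change was -0.34. Without sham 2, the highest library, it was -0.24.

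Tbk1 was at a far lower level, and its groups overlapped. The values were 16.8, 18.2 and 18.1 FPKM in sham and 19.4, 18.3 and 14.1 FPKM in TON. TON 4 was the highest and TON 6 the lowest of the 6 libraries, so the TON group covered the whole sham range. The log2 change was -0.04 ± 0.15 (SE, adjusted p = 0.93, limma), and its 95% interval ran from -24.1% to 23.7%. Without TON 6 the direction turned, to 0.09.

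Sqstm1 encodes p62, a receptor that is itself degraded by autophagy and whose gene is a known target of NRF2. It had the largest log2 change of the members, except under median centring of the libraries, where that of Optn was larger (0.35 for Sqstm1 and -0.39 for Optn). The values were 101.5, 103.6 and 120.2 FPKM in sham and 118.2, 159.7 and 165.3 FPKM in TON. TON 5 and TON 6 were above every sham library, whereas TON 4 lay just below sham 3. The means were 108.5 ± 10.3 and 147.7 ± 25.7 FPKM (SD, n = 3), a difference of 36.2%. The log2 change was 0.43 ± 0.14 (SE), with a 95% interval of 7.19% to 69.6%, an unadjusted p of 0.0171 and an adjusted p of 0.408 in limma. The summed Müller glia markers were also highest in TON 5 (1711 FPKM) and TON 6 (1708 FPKM) and were 1530 FPKM in TON 4, and the part of these cells in the difference was not tested. The 3 amacrine cell markers summed to 334.4 and 331.9 FPKM in TON 5 and TON 6, 270.9 in TON 4 and 274.1 to 300.6 in sham, and their part was not tested either.

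Of the ATG8 genes, Gabarapl2 was higher in TON. Its levels were 69.1, 58.9 and 61.1 FPKM in sham and 75.7, 73.0 and 72.0 FPKM in TON. All TON libraries were above all sham libraries, with the smallest gap to sham 1. The means were 63.0 ± 5.33 and 73.6 ± 1.91 FPKM (SD, n = 3), a difference of 16.7%. The log2 change was 0.22 ± 0.09 (SE), with an unadjusted p of 0.0428 and an adjusted p of 0.475 in limma, and the 95% interval ran from 0.642% to 35.3%. Median centring of the libraries lowered the change to 0.14. Gabarap, the most abundant member, had 128.2, 140.4 and 147.3 FPKM in sham and 161.2, 142.9 and 145.0 FPKM in TON. Its groups overlapped, and the log2 change of 0.11 had an adjusted p of 0.713 in limma. It was 0.03 under median centring, 0.06 without sham 1 and 0.06 without TON 4. A row named LOC100363716 (chr19:64367214-64383493) spanned both m6A peaks that the peak lists name Map1lc3b. It had 97.0, 102.7 and 121.1 FPKM in sham and 97.3, 102.6 and 113.2 FPKM in TON. The ranges nearly coincided, but the row is not identified as Map1lc3b in the files and was not counted with the set.

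The genes that start the membrane and attach ATG8 proteins differed less from their spread. Becn1 was lower in TON in every library, with 42.5, 45.3 and 42.5 FPKM in sham and 41.2, 40.1 and 39.3 FPKM in TON. The groups did not overlap, yet the difference was only -7.54%, with an adjusted p of 0.699 in limma. The log2 change of -0.11 was -0.19 under median centring. Ulk1 had 18.2, 19.5 and 17.9 FPKM in sham and 19.4, 21.6 and 27.3 FPKM in TON. TON 4 lay below sham 2, and the log2 change of 0.27 had an adjusted p of 0.579 in limma and a 95% interval of -5.07% to 53.4%. Without TON 6 the change was 0.14.

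Atg5 and Atg7 were the least abundant. Atg5, whose product joins ATG12 to form part of the enzyme that lipidates ATG8 proteins, had 9.85, 9.22 and 7.98 FPKM in sham. In TON it had 11.0, 10.4 and 11.2 FPKM. Every TON value was higher, on 61.4 to 86.4 scaled fragments per library. The log2 change of 0.25 had an adjusted p of 0.644 in limma and was 0.16 under quantile normalization. Atg7, the enzyme that activates both ATG12 and the ATG8 proteins, had 11.6, 10.2 and 7.48 FPKM in sham and 10.1, 11.3 and 13.6 FPKM in TON. Its groups overlapped widely, and the 95% interval of -15.0% to 65.6% left its direction unresolved. The log2 change of 0.25 was 0.08 without sham 3, 0.14 without TON 6 and 0.16 under quantile normalization.

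Ordered by mean level over the 6 libraries, Gabarap (144.2 FPKM), Sqstm1 (128.1 FPKM) and Optn (116.2 FPKM) came first, and the ranges of neighbours in this trio overlapped. Gabarapl2 (68.3 FPKM) and Becn1 (41.8 FPKM) each stood apart from the gene above and below. Ulk1 (20.6 FPKM) and Tbk1 (17.5 FPKM) overlapped, as did Atg7 (10.7 FPKM) and Atg5 (9.94 FPKM). The members thus ran from the 97.3 to the 49.2 percentile of the genes tested. Within groups the leading order differed. All sham libraries had more Optn than Sqstm1, and all TON libraries had more Sqstm1 than Optn. In sham 3 the gap was small, with 121.2 FPKM for Optn and 120.2 FPKM for Sqstm1.

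**Figure D2:**
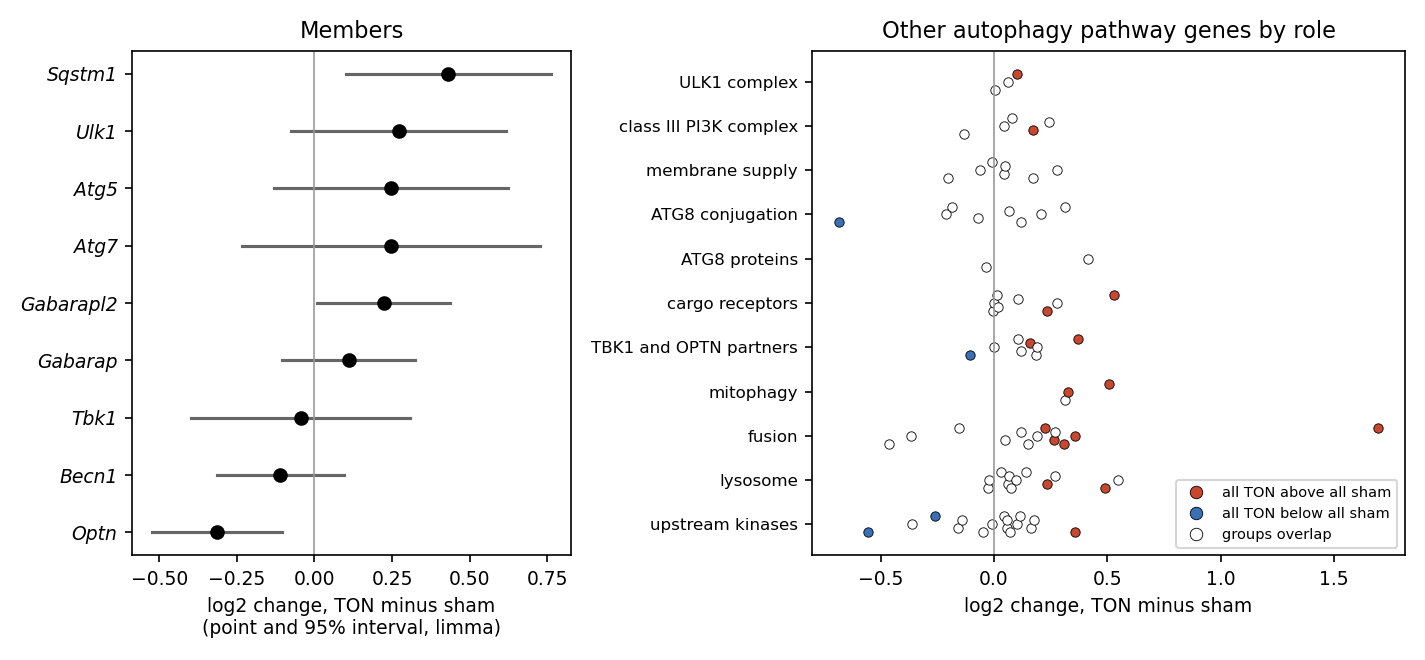
Left, log2 change in TON against sham of each member with its 95% interval in limma. Right, the log2 change of each other gene of the autophagy list by role, with filled points where the groups do not overlap. The intervals of Optn, Sqstm1 and Gabarapl2 exclude 0 before adjustment over all genes, and most points on the right lie close to 0.

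A wider list of 91 autophagy genes by role, was fitted in the same way and leaves out the members. Of 86 found, 85 were tested and none passed in limma (0 of 85, lowest adjusted p 0.181). At an unadjusted p under 0.05 there were 9 higher and 2 lower of 85, beside 10.4% of all genes (1123 higher and 523 lower). The groups did not overlap in 16 higher and 4 lower. That is 23.5% of the list, beside the 16.2% of all genes. The median log2 change was 0.08, with 62 genes above 0 and 23 below. Over all genes tested it was 0.06, with 9329 above 0 and 6571 below. By role, non-overlapping genes lay higher in 5 of the 13 fusion genes, 2 of the 3 mitophagy genes, 2 of the 12 lysosomal genes and 2 of the 8 cargo receptors tested, beside 10.8% of all genes. The 16 upstream kinase genes had 1 higher and 2 lower, and the 8 ATG8 conjugation genes had 1 lower. Of all genes, 5.33% were lower without overlap. The ULK1 complex and the class III PI3K complex had 1 higher each. The 7 genes that supply membrane and the other 2 ATG8 genes had none. Among the 8 genes tied to TBK1 and OPTN, 3 had groups that did not overlap. The motor myosin VI (Myo6), which binds OPTN, was lower in TON, and the TBK1 adaptor Tbkbp1 and huntingtin (Htt) were higher.

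The lowest p-value in the list belonged to Phb2, an inner-membrane protein of mitochondria that serves as a mitophagy receptor. It had 37.5, 35.4 and 38.6 FPKM in sham and 52.3, 54.5 and 55.7 FPKM in TON. The groups were widely separated, with a log2 change of 0.53 and an adjusted p of 0.181 in limma. Vamp8, a SNARE of autophagosome fusion with the lysosome, had 7.57, 7.09 and 4.16 FPKM in sham and 21.6, 15.5 and 31.6 FPKM in TON. These values rest on only 1.01 to 7.75 scaled fragments per library, too few for the size of the log2 change of 1.69 (adjusted p = 0.191, limma) to be firm. Of the 3 cathepsins in the list, which are lysosomal proteases, Ctsl had a log2 change of 0.49 (adjusted p = 0.406) and Ctsd one of 0.23 (adjusted p = 0.438), both without overlap of the groups. Ctsb had one of 0.06 (adjusted p = 0.823, limma), and its groups overlapped.

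Vps39, a subunit of the tethering complex that joins vesicles to lysosomes, had a log2 change of 0.36 (adjusted p = 0.446, limma). Park2, the ubiquitin ligase parkin, had one of 0.51 (adjusted p = 0.465, limma). Prkab1, a regulatory subunit of the energy sensor AMPK, had one of 0.36 (adjusted p = 0.405, limma). Sesn2, a stress-induced inhibitor of mTORC1, was lower, with 13.8, 18.6 and 18.4 FPKM in sham and 8.89, 11.4 and 13.5 FPKM in TON. Its TON values all lay below sham 1, the lowest sham library, with a log2 change of -0.56 (adjusted p = 0.434, limma).

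The genes whose levels were most like those of Optn over the 6 input libraries were sought among 12976 genes by Pearson's r of log2(FPKM + 1), as a description without a test. Hsp90aa1, the stress-inducible HSP90 chaperone, had r = 0.995. Its levels were 1022, 1383 and 945.4 FPKM in sham and 642.9, 554.8 and 593.3 FPKM in TON, with the same high sham 2. The unnamed genes AABR06054504.1 (r = 0.995) and AABR06001675.1 (r = 0.993) stood beside it. For Tbk1 the most alike were Ppcdc (r = 0.994), Usmg5 (r = 0.992) and Wtap (r = 0.990), a subunit of the m6A writer complex. Wtap had 56.7, 59.5 and 59.3 FPKM in sham and 61.6, 60.0 and 53.5 FPKM in TON, lowest in TON 6 as Tbk1 was. For Sqstm1 they were Hpcal1 (r = 0.992), Fbxl16 (r = 0.989) and Camk2b (r = 0.987). All points of a correlation share the same 6 libraries, and r above 0.95 was reached by 54 genes for Optn, 26 for Tbk1 and 68 for Sqstm1.

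In the m6A data, Optn carried most of the peaks of the set. It had 5, 7 and 7 peaks in sham 1 to 3 and 8, 7 and 7 in TON 4 to 6. Tbk1 had 1 in each sham list and 0, 1 and 2 in the TON lists. Gabarapl2 had 1 in each sham list and none in TON. Map1lc3b had 1, 0 and 0 in sham and 1, 2 and 0 in TON, and Atg5 had 1, 1 and 2 in sham and 1, 0 and 1 in TON. Sqstm1, Gabarap, Becn1, Atg7 and Ulk1 had none in any list. Among the 7640 genes within the range of the members' levels 76.5% had a peak in some list, and among the 721 genes of at least 100 FPKM 57.7% did. In each list only 1.63% to 7.83% of the genes with a peak had as many as Optn. Peak numbers were not scaled to the length of a gene or its transcript.

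Summed over the set, the lists held 9, 10 and 11 peaks in sham and 10, 10 and 10 in TON. The means were both 10 (exact permutation test, two-sided, p = 1, where 3 against 3 cannot go below 0.1). The peak lists were not alike in kind. TON 4 and TON 6 had a median fold enrichment over input of 8.56 and 9.64 and a median peak length of 287 and 300 bases, against 6.63 to 7.21 and 183 to 201 bases in the other 4 lists. These were also the input libraries of the lowest estimated depth, 3165552 and 3734394 fragments. Sham 3 had a median false discovery rate of 92.99%, against 29.65% to 45.21% in the other lists. The depth of the immunoprecipitated libraries is unknown, and the part of these differences in the values below was not tested.

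**Figure D3:**
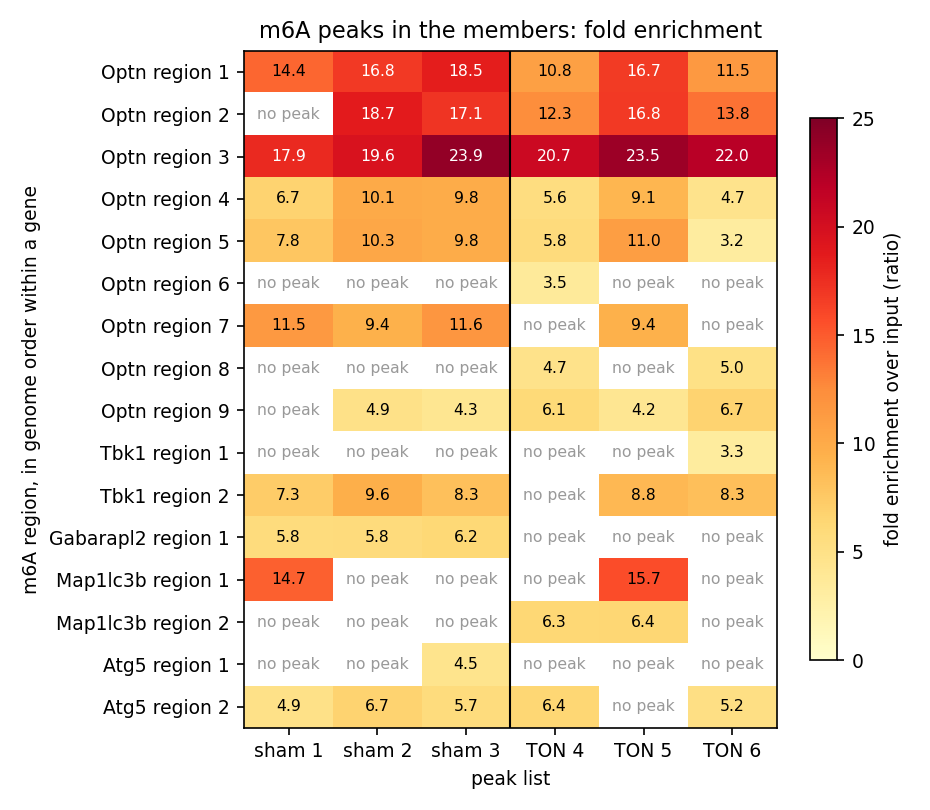
Fold enrichment over input of each m6A region of the set (rows, numbered in genome order within a gene) in the 6 peak lists (columns), with lists that hold no peak marked as such. Regions 1, 3, 4 and 5 of Optn were in all 6 lists, and the Gabarapl2 region was in the 3 sham lists only.

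Optn had 9 m6A regions along its gene (chr17:78833450-78884466, plus strand, in the coordinates of the files, with the genome build not given in the sources used here). Of these, 4 were in all 6 lists, as were 21.4% of the regions of all genes. Each region had the same bounds in every list that held it, as did 85.8% of the 17664 regions found in more than 1 list. Where these shared bounds come from was not tested, and the 9 regions are not shown to be 9 separate methylated sites. The region with the highest enrichment lay 10197 bases from the gene start (chr17:78843647-78843849). Its fold enrichment was 17.9, 19.6 and 23.9 in sham and 20.7, 23.5 and 22.0 in TON. The groups overlapped fully, and the region stood at the 88.7 to 97.1 percentile of its list by enrichment. Its false discovery rate, as the authors' caller gave it, was 3.46% to 13.9%.

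The other regions in all lists showed lower values in TON 4 and TON 6. The region at the first base of the gene (chr17:78833450-78833621) had folds of 14.4, 16.8 and 18.5 in sham and 10.9, 16.7 and 11.5 in TON. It stood at the 92.5 to 93.9 percentile of the sham lists and the 61.5 to 91.4 percentile of the TON lists. The region at 17442 bases (chr17:78850892-78851107) had folds of 6.68, 10.1 and 9.80 in sham and 5.56, 9.08 and 4.68 in TON. TON 5 lay within the sham range in both, while TON 4 and TON 6 lay below it. The region at 21627 bases (chr17:78855077-78855156) had 7.81, 10.3 and 9.82 in sham and 5.79, 11.0 and 3.17 in TON, with TON 5 the highest of all. Fold enrichment is set within each list by the authors' caller, so these values were not tested between groups.

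A further 2 regions of Optn were in every list but sham 1. One lay 9004 bases from the start (chr17:78842454-78842630), with folds of 18.7 and 17.2 in sham 2 and 3 and 12.3, 16.8 and 13.8 in TON. The other covered the last 2262 bases of the gene (chr17:78882205-78884466), with low folds of 4.92 and 4.28 in sham and 6.06, 4.19 and 6.66 in TON. Pairs of lists were split in the remaining regions. The region at 28164 bases (chr17:78861614-78861799) had folds of 11.5, 9.41 and 11.6 in sham and 9.41 in TON 5, and no peak in TON 4 and TON 6. The same pattern of lists held for 708 regions in all (2.88%). The region at 30714 bases (chr17:78864164-78864313) was in TON 4 (4.69) and TON 6 (5.05) only, a pattern of 1000 regions (4.06%). One at 23853 bases was in TON 4 only, with a fold of 3.52.

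**Figure D4:**
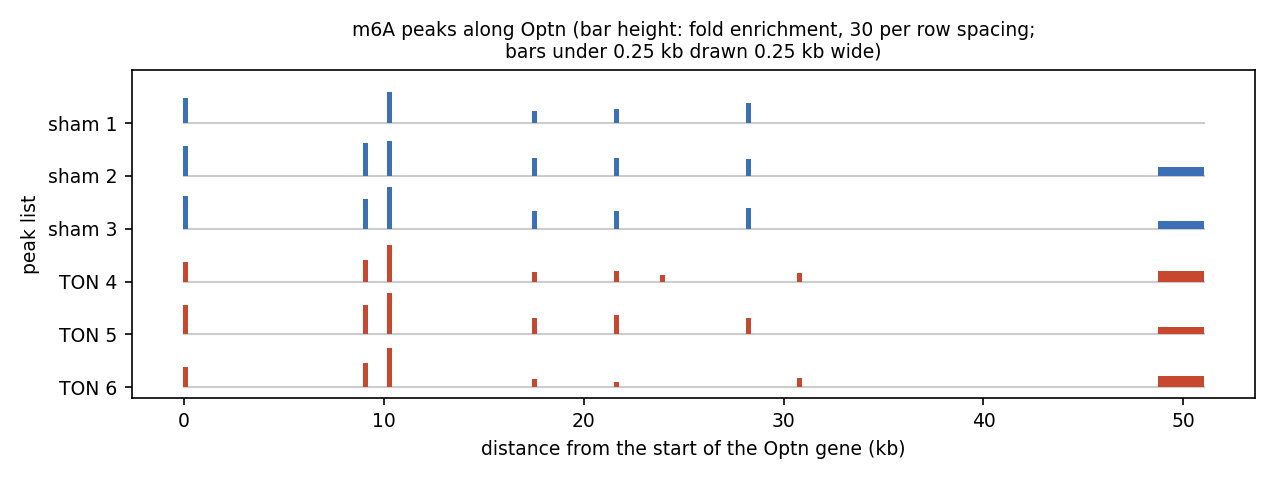
m6A peaks along Optn in each list, against distance from the gene start in kb, with bar height for fold enrichment over input (sham blue, TON red). The tallest bar, 10197 bases from the start, is in every list, and the last 2262 bases are covered in every list but sham 1.

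In the whole set 1 region was lost, that is in all 3 sham lists and no TON list (1.86% of all regions), and 0 of 16 were gained, that is in all 3 TON lists and no sham list (1.67% of all regions). The lost region was that of Gabarapl2, the first 102 bases of the gene (chr19:54972028-54972129, plus strand). Its fold enrichment was 5.75, 5.83 and 6.24 in sham 1 to 3, at the 31.5 to 40.2 percentile of those lists, with a false discovery rate of 13.1% to 93.7%. Its input level was 72.0 to 75.7 FPKM in TON and 58.9 to 69.1 FPKM in sham, and why the TON lists hold no peak there was not tested. The region was lost also without any 1 library, but with the top 50% of each list it was no longer called in all sham lists.

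The other genes with peaks had each at most 2 regions. Tbk1 had a region 26437 bases from the gene start and 6173 bases from the gene end (chr7:63883740-63883861, minus strand). Its folds were 7.31, 9.62 and 8.29 in sham and 8.85 and 8.31 in TON 5 and TON 6. Only TON 4 lacked it, but where it was called its false discovery rate was 38.0% to 100%. A stretch of 30 bases nearby (chr7:63882875-63882904) was in TON 6 only, with a fold of 3.28. Map1lc3b had a strong region (chr19:64373068-64373183) in sham 1 (14.7) and TON 5 (15.7), 1 list of each group. Its second (chr19:64379244-64379350) was in TON 4 (6.29) and TON 5 (6.42). Atg5 had a region at its end (chr20:51024782-51026122) with folds of 4.90, 6.69 and 5.69 in sham and 6.38 and 5.24 in TON 4 and TON 6. In the sham lists it was 960 to 1341 bases long and in the TON lists 731 to 772 bases. Its false discovery rate was 30.2% to 100%. Another region of Atg5, in sham 3 only, had a fold of 4.55 and a false discovery rate of 100%.

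Of the 91 other autophagy genes, 89 were named in the expression table or a peak list, and 67 of these had a peak, 27 of them in every list, over 199 regions. Of these regions 0 were gained and 8 were lost (4.02%, beside 1.86% of all regions). They lay in Uvrag, which binds Beclin 1, in the cargo receptors Nbr1, Tax1bp1 and Bnip3, in Rab8a, a GTPase that binds OPTN, in Vps41, in Ctsd and in Mtor. The Nbr1 region (chr10:89274688-89275102) had the highest scores of these 8 (the caller's score, based on its p-value), with 891 to 1812, folds of 6.56 to 12.2 and a false discovery rate of 7.31% to 30.2%. The Rab8a region (chr16:19218296-19218346) had folds of 5.79 to 7.03 and a false discovery rate of 40.8% to 100%. Ctsd, like Gabarapl2, had a lost region (chr1:222448620-222448798, folds of 5.47 to 11.5) and input levels that were higher in all TON libraries. The others did not share this. In Uvrag, Tax1bp1, Bnip3, Rab8a, Vps41 and Mtor the groups overlapped, with log2 changes from -0.15 to 0.18, and Nbr1 had no expression row.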

How the data were processed

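Input RNA and m6A-immunoprecipitated RNA of 3 sham and 3 TON pools were sequenced. Per the labels and methods, the authors used cutadapt 1.9.3, HISAT2 2.0.4, Cufflinks and Cuffdiff, and called peaks per sample with MACS. For the expression of these rat samples the methods give a human build. The deposited table gives FPKM and a signal of fragments scaled between libraries (97.7% to 98.2% of low values were whole multiples of 1 value, within 0.02). The deposited peak lists give a length, a score from the p-value, a false discovery rate in percent and a fold enrichment (a ratio over input). Depth limits precision for Atg5, Atg7 and Vamp8.

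log2(FPKM + 1) was tested with limma 3.58.1 in R 4.3.3 (genes averaging 0.1 FPKM or more in sham or TON, intensity trend, two-sided, Benjamini-Hochberg over 15900 genes, adjusted p under 0.05). The fit was tried on simulated data, but only with changes larger than those of any member. That trial does not show that changes of the members' size would be found. Peaks sharing at least 1 base were merged (Python 3.11.15, pandas 2.3.3, NumPy 2.4.6, SciPy 1.17.1). Members and lists were chosen with earlier results of these data known. Named were all members, the 8 list genes of lowest p with non-overlapping groups and a mean of 1 FPKM or more, and the 3 genes most like each of Optn, Tbk1 and Sqstm1; lost list regions, Myo6, Tbkbp1 and Htt were named after their values were seen. Alternatives were a pseudocount of 0.1, no filter or 1 FPKM, median centring, quantile normalization, no trend, scaled fragments, stricter peaks (a score of at least 100, the top 50%), 100 bases of overlap, whole genes, 2 of 3 lists, bases covered, and leaving out each sample. p-values measure the spread between these pools.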

Additional observations from a re-analysis of the deposited data

How the results depend on the processing

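None of the 9 tested members and none of the 85 list genes passed an adjusted p of 0.05 in limma under the main settings or any of the 13 alternatives run. Each member kept the direction of its log2 change under all 13, except Tbk1, which ranged from -0.13 (without TON 4) to 0.0866 (without TON 6). The adjusted p of Optn ranged from 0.242 to 0.732 and that of Sqstm1 from 0.183 to 0.738. Over all genes, 7 changed, 44 with scaled fragments, and 3 (without sham 1) to 15 (without sham 3) when single samples were left out; the cause was not tested.

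Gained member regions went from 0 to 2 (Optn and Map1lc3b) when 2 of the 3 lists sufficed, and ranged from 0 to 1 when single samples were left out (1 in Optn without TON 5, 1 in Map1lc3b without TON 6). Lost member regions went from 1 to 0 with the top 50% of each list and ranged from 1 to 2 when single samples were left out (2, in Gabarapl2 and Optn, without TON 5). Fewer lists to satisfy make either call easier. Over all regions, gained calls went from 411 to 1767 of 24605 when 2 of the 3 lists sufficed. Without TON 5, 1411 of 23715 regions were gained and 1165 lost, and without TON 6, 624 of 23835 were gained. The difference in summed peaks was -2.67 with the top 50% (exact permutation p = 0.4) and -0.5 to 0.5 when single samples were left out. No paired analysis was possible because the sham and TON samples share no replicate numbers. A planned edgeR test on recovered fragments was not run, because whole counts were not accepted as recovered from the scaled fragments. Pools of 4 rats, 3 per group, and high false discovery rates limit what single peaks can show.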
